A study of Mus musculus with 8 samples.

Results

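The ureteric bud of the E11.5 mouse embryo was compared with the nephric duct of 1 day earlier, from which the bud grows out. Of the 8 arrays in the series, 3 entered the comparison: 1 of E11.5 bud cells, 1 of the caudal E10.5 duct and 1 of the rostral E10.5 duct. The bud was set against the caudal and against the rostral array separately, and each gene was put into a class by whether it differed from both or from 1 of them only. The choice of arrays came from the labels and not from measured values.

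All 3 samples were cells of ICR mouse embryos carrying a Hoxb7-GFP transgene, sorted as GFP-positive and Flk1-negative. A promoter of Hoxb7 drives this reporter in the nephric duct and its bud, and Flk1, the product of Kdr, is a receptor of endothelial cells, so the gate was meant to keep duct cells and leave out vessels. Neither treatment nor mutation distinguished the samples, which differed in embryonic day and in the piece of the embryo taken. The remaining arrays, used only as a yardstick, held Hoxb7-GFP cells of E8.75 (1 array), Hoxb7-GFP-positive and Flk1-negative cells of the caudal and rostral E9.5 embryo (1 array each), and Wt1-GFP intermediate mesoderm of the caudal and rostral E9.5 embryo (1 array each). The labels do not say how many embryos were combined on an array.

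The nephric duct is an epithelial tube that extends tailwards along the trunk within the intermediate mesoderm. Near its caudal end, GDNF from the neighbouring mesenchyme binds the receptor Ret and its co-receptor Gfra1 on duct cells, and the ureteric bud grows out and begins to branch. Ret signalling acts through ERK and raises the ETS factors Etv4 and Etv5 and, further on, Wnt11. Cells of the branching tip keep this programme, while the stalk behind them becomes the trunk of the collecting duct and the ureter. Retinoic acid, made by aldehyde dehydrogenases and broken down by Cyp26 enzymes, is known to sustain Ret in the bud.

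A level below is the log2 processed signal of a gene's brightest probe with the log2 of the 75th percentile signal on its array subtracted, so a level of 0 equals that percentile. A difference is the bud's level minus that of an E10.5 array, also on the log2 scale, and 1 on this scale is 2-fold. Where a probe was not well above background on an array, its level was raised to the lowest level that any well-above probe had there (-4.37 for the bud, -3.95 for caudal duct and -4.76 for rostral duct), and the fold is written as at least N-fold. With 1 array a group, there is no replicate check and no p-value for any single difference. Feature Extraction's own error model put a median error of 0.206 on a difference from caudal duct and 0.205 on one from rostral duct, and repeated spots of a probe had a median SD of 0.0772 on the bud array. Both cover measurement on the slide, not variation between embryos or amplifications.

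Over 27331 genes above background on at least 1 of the 3 arrays, the bud differed by 2-fold or more from caudal duct in 4531 (16.6%), of which 2128 (7.79%) were higher in the bud and 2403 (8.79%) lower. Against rostral duct 5610 genes (20.5%) passed 2-fold, 3226 higher (11.8%) and 2384 lower (8.72%). The bud was higher than both E10.5 arrays in 1332 genes (4.87%) and lower than both in 1105 (4.04%). Because both comparisons share the bud array, passing both is not a repeat of the finding.

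The bud was higher than caudal duct only in 775 genes (2.84%) and lower than caudal duct only in 1268 (4.64%), and it was higher than rostral duct only in 1864 (6.82%) and lower than rostral duct only in 1258 (4.6%). In 295, 541, 685 and 499 of these genes, in the same order, the bud lay within 0.5 of the other array. Only 21 genes (0.0768%) were higher than caudal and lower than rostral duct, and 30 (0.11%) were lower than caudal and higher than rostral duct.

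**Figure D1:**
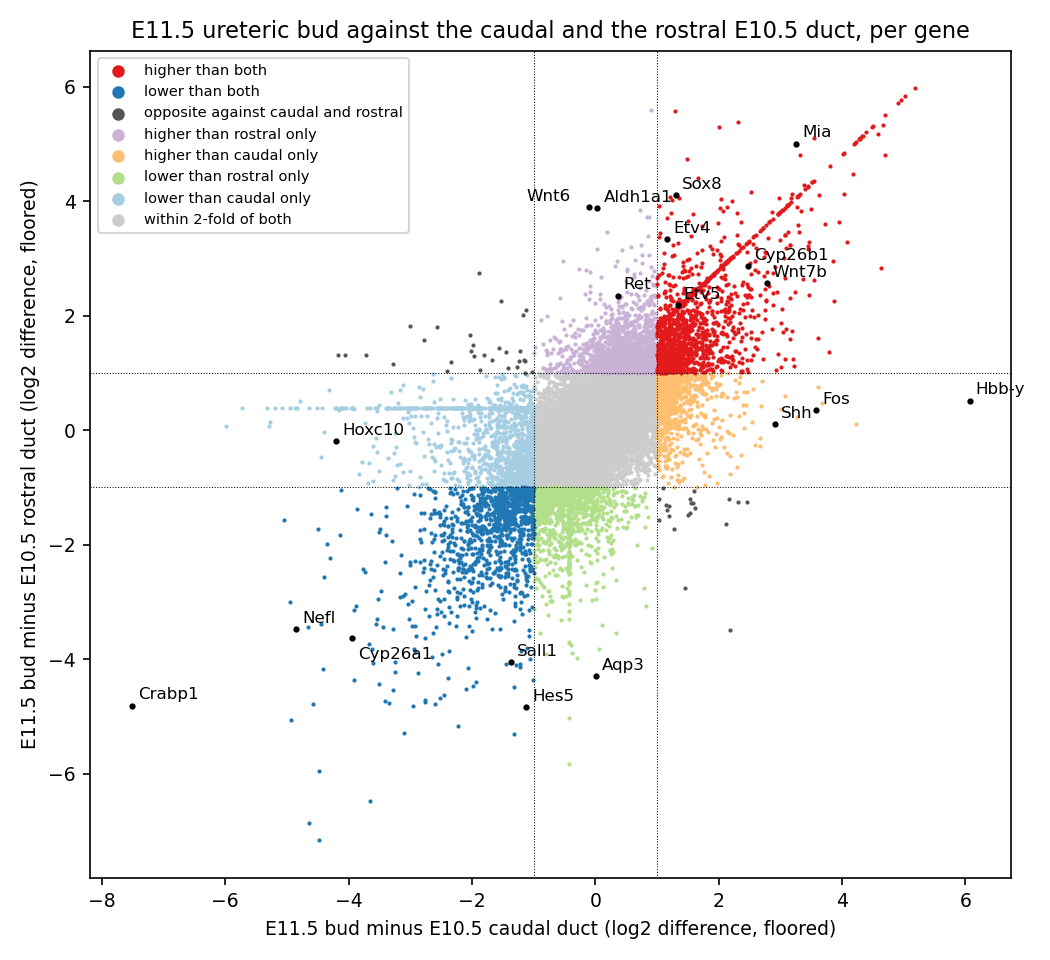
Each point is a gene, with the log2 difference of the E11.5 bud from the caudal E10.5 duct on the x axis and from the rostral E10.5 duct on the y axis, levels below background raised to the array's floor; colours give the class and dotted lines 2-fold. The straight diagonal and horizontal lines of points are genes at the floor on 2 of the 3 arrays; Crabp1 and Nefl lie far into the lower left, Mia, Cyp26b1 and Wnt7b in the upper right.

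A pair of arrays of 1 stage gave a sense of scale. The caudal and rostral E10.5 arrays differed by 2-fold in 11.9% of the same genes, and the caudal and rostral E9.5 arrays also in 11.9%. Among 19916 genes above background on all 8 arrays, the SD of the difference was 0.714 between the bud and caudal duct and 0.784 between the bud and rostral duct, against 0.564 between the E10.5 arrays and 0.63 between the E9.5 arrays. The bud therefore lay farther from each E10.5 array than those arrays lay from each other, by both measures. The bud and caudal arrays sat in slide part 2 and the rostral array in slide part 1, so for the rostral comparison slide part and position along the duct cannot be told apart.

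A limma model over all 8 arrays, with 2 residual degrees of freedom, called 0 of 29445 genes between E11.5 and E10.5 at adjusted p 0.05 (lowest adjusted p = 0.24). The model takes the lone bud array to vary like the groups split into rostral and caudal. Its p therefore measures how the rostral and caudal difference varies between groups, not the spread between embryos. A prior variance that followed intensity left the outcome unchanged. In simulated data of this design, changes of 16-fold were also called in 0% of cases, so the count of 0 says nothing about whether genes changed.

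Genes of the sort and of duct identity were checked first. Hoxb7 had levels of 3.28 in the bud, 3.17 in caudal duct and 3.22 in rostral duct, nearly the same on the 3 arrays. Kdr was at 1.47 in the bud, 1.70 in caudal duct and 1.62 in rostral duct, against 4.12 in the E8.75 cells, whose label states no Flk1 gate. Kdr was thus dimmer than at E8.75 but not at background, and its other probe was higher in the bud than in caudal and rostral duct by 1.6 and 1.4.

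Gata3, a zinc finger factor that the duct needs to reach the cloaca, was at 3.00 in the bud, 3.04 in caudal duct and 2.97 in rostral duct. Lhx1, a LIM homeodomain factor of the early duct, stood at 2.15 in the bud, 2.70 in caudal duct and 2.85 in rostral duct. Pax2, the paired box factor that specifies duct and nephrogenic mesoderm, was at 4.21 in the bud, 4.92 in caudal duct and 5.24 in rostral duct, past 2-fold against rostral duct only (2.05-fold lower). All 3 duct factors were above the 75th percentile on the 3 arrays.

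Several other duct transcription factors were lower in the bud. Of 17 on the list, 3 were higher and 4 lower than caudal duct (17.6% and 23.5%, against 7.79% and 8.79% of all genes). Against rostral duct 2 were higher and 7 lower (11.8% and 41.2%, against 11.8% and 8.72% of all genes). Sall1, a zinc finger factor of kidney mesenchyme and duct, was at -2.26 in the bud, -0.89 in caudal duct and 1.79 in rostral duct. Sall4, a relative of Sall1, was at 0.57 in the bud, 2.28 in caudal duct and 1.76 in rostral duct, and both of its other probes were lower as well. Pax8, a relative of Pax2, was lower than rostral duct only (-0.63 in the bud, 0.35 in caudal duct and 1.77 in rostral duct).

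Tfcp2l1, a grainyhead-like factor later found in collecting duct, was at 5.33 in the bud, 3.52 in caudal duct and 4.79 in rostral duct. Tfap2b, an AP-2 factor of duct and distal nephron, was at 4.71 in the bud, 3.21 in caudal duct and 4.75 in rostral duct. Caudal duct was the low array for both. Bcl11a was the only list member higher than both E10.5 arrays, at -0.78 in the bud, -3.67 in caudal duct and -3.17 in rostral duct. Its other probes did not share a sign, at -0.14 and 2.62 from caudal duct and -0.47 and 1.70 from rostral duct.

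Many genes of the bud tip and the Ret pathway were higher in the bud than in E10.5 duct. Of 25 measured, 9 were higher and 1 was lower than caudal duct (36% and 4%, against 7.79% and 8.79% of all genes). Against rostral duct 14 were higher and 3 lower (56% and 12%, against 11.8% and 8.72% of all genes). The median difference of the list was 0.41 from caudal duct and 1.37 from rostral duct, against -0.085 and 0.041 over all genes. All 9 genes higher than caudal duct were also higher than rostral duct: Etv4, Etv5, Dusp6, Spry1, Spred1, Sox8, Sox9, Wnt11 and Myb.

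The receptor pair itself separated the bud from rostral duct and not from caudal duct. Ret had levels of 2.15 in the bud, 1.79 in caudal duct and -0.20 in rostral duct, 1.28-fold higher in the bud than in caudal duct and 5.09-fold higher than in rostral duct. Gfra1, the GDNF co-receptor, was at 2.02 in the bud, 1.40 in caudal duct and -0.65 in rostral duct, 1.54-fold higher in the bud than in caudal duct and 6.34-fold higher than in rostral duct. Ret was already as bright in the E8.75 cells (2.12) and in the caudal E9.5 duct (2.23), while the rostral E9.5 duct was at -0.66.

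Targets downstream of Ret differed from both arrays. Etv5 had levels of 4.73 in the bud, 3.40 in caudal duct and 2.54 in rostral duct, 2.52-fold higher in the bud than in caudal duct and 4.55-fold higher than in rostral duct; pairs of folds below keep this order. Etv4 was at 4.80 in the bud, 3.64 in caudal duct and 1.47 in rostral duct, 2.23-fold and 10.0-fold higher, but its other probe differed by -0.1 from caudal duct and 2.6 from rostral duct. Wnt11, a Wnt ligand of the tip, was at 0.95 in the bud, -0.71 in caudal duct and -1.78 in rostral duct, 3.16-fold and 6.64-fold higher. The order was the same for these 3 genes, with the bud highest, caudal duct next and rostral duct lowest.

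Spry1, Dusp6 and Spred1, feedback inhibitors of ERK signalling, followed that order too. Spry1, a sprouty protein that restrains Ret signalling, was at 3.22 in the bud, 1.60 in caudal duct and 0.85 in rostral duct. Dusp6, a phosphatase of ERK, was at 5.79 in the bud, 4.77 in caudal duct and 4.42 in rostral duct, and Spred1 was at 4.37 in the bud, 2.85 in caudal duct and 2.32 in rostral duct. Spry2 differed from rostral duct only, with 0.21 in the bud, 0.16 in caudal duct and -1.11 in rostral duct. Spry4, also measured, did not pass 2-fold in either comparison.

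The SoxE factors Sox8 and Sox9, which act in branching, were higher than both. Sox9 was at 3.62 in the bud, 2.20 in caudal duct and 1.90 in rostral duct. Sox8 was at 0.59 in the bud, -0.71 in caudal duct and -3.50 in rostral duct, 2.47-fold and 17.1-fold higher in the bud. Myb, a transcription factor known as a Ret target, was at 1.42 in the bud, -0.11 in caudal duct and -0.02 in rostral duct, so it did not share the rostral low of the others.

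Cxcr4, a chemokine receptor, was like Ret, with 4.90 in the bud, 4.49 in caudal duct and 2.57 in rostral duct. Met, the receptor of hepatocyte growth factor, went the other way, with -0.30 in the bud, 0.30 in caudal duct and 0.83 in rostral duct. Kif26b was well above background on the caudal array alone (-1.0).

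**Figure D2:**
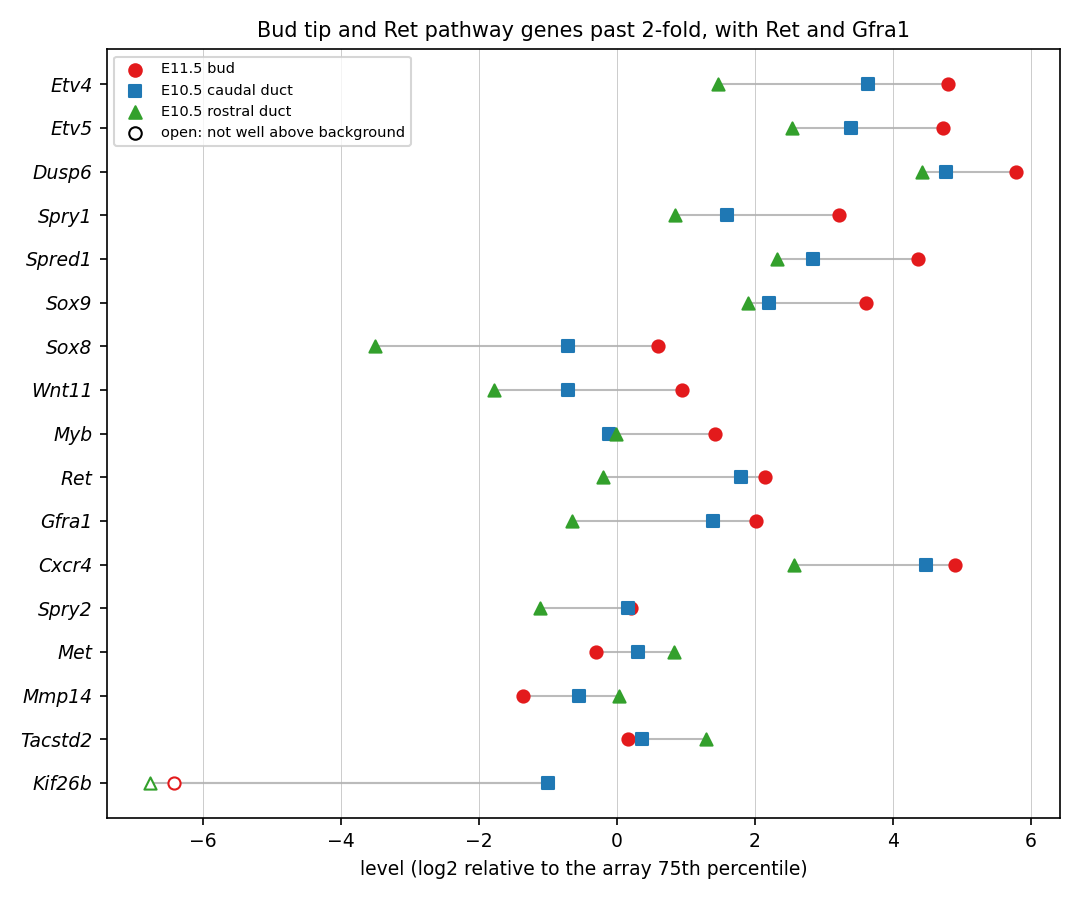
Levels of 17 bud tip and Ret pathway genes past 2-fold in either comparison, on the log2 scale relative to the array's 75th percentile, with red circles for the E11.5 bud, blue squares for caudal and green triangles for rostral E10.5 duct, 1 array each. In the upper 9 rows the circle lies right of both other marks, and in the next 4 it lies nearer to the square than to the triangle.

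The wider FGF pathway shares Etv4, Etv5, Spry1, Spry2, Spry4 and Dusp6 with the tip list. Of 20 measured genes, 6 were higher and 0 lower than caudal duct, and 10 were higher and 1 lower than rostral duct. Among the 14 that the lists do not share, 2 were higher and 0 lower than caudal duct, against 7.79% and 8.79% of all genes, and 5 were higher and 1 lower than rostral duct, against 11.8% and 8.72%. The 5 were Fgf9, Fgfrl1, Fgfbp1, Etv1 and Fgfbp3. Etv1, another ETS factor of the same subfamily, was at 0.21 in the bud, -1.04 in caudal duct and -3.80 in rostral duct, and its other probe was higher by 2.0 and 1.9. Fgfbp3, a carrier of FGFs, was at -0.19 in the bud, -1.92 in caudal duct and -1.32 in rostral duct.

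Retinoic acid genes differed in both directions. Of 17 measured, 4 were higher and 3 lower than caudal duct (23.5% and 17.6%, against 7.79% and 8.79% of all genes). Against rostral duct 7 were higher and 5 lower (41.2% and 29.4%, against 11.8% and 8.72%). The 4 and 3 that passed against caudal duct also passed against rostral duct in the same direction. The promoters of Rarb and Cyp26a1 hold the best known response element of the pathway, and that of Cyp26b1, which lacks it, is shown beside them. The windows are the 250 bases before the annotated start on the GRCm38.p6 build, from RefSeq, and capitals mark a DR5 element, a direct repeat of a half-site with 5 bases between the copies, searched on both strands; the half-site was AGGTCA or a variant with G as the first base, T as the third base or both.
Rarb: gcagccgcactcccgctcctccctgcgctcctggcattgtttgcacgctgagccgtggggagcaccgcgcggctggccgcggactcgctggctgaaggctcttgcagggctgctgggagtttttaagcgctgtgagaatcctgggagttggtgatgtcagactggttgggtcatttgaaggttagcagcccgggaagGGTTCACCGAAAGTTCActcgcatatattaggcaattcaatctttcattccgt
Cyp26a1: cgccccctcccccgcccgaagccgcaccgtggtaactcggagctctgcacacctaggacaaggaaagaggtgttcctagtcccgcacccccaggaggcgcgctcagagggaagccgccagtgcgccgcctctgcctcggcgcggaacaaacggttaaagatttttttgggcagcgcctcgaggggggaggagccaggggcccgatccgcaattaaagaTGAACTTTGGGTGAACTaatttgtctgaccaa
Cyp26b1: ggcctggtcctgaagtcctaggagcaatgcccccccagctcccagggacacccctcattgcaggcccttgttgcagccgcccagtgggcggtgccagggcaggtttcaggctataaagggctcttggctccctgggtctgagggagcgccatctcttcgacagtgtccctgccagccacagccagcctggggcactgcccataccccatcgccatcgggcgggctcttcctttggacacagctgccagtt

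The windows lie at chr14:16575477-16575726 on the minus strand for Rarb, chr19:37697558-37697807 on the plus strand for Cyp26a1 and chr6:84593811-84594060 on the minus strand for Cyp26b1. The Rarb element spans bases -53 to -37 before the start and reads in the gene's direction, and the Cyp26a1 element spans -32 to -16 and reads against it. Such an element occurs in 32 of 32851 promoter windows of 300 bases (0.097%), chromosome 18 left out, and in 2 of the 13 retinoic acid genes that have a window. The match describes the letters only. Of 9 measured genes with such an element, 2 were higher than both E10.5 arrays, 1 was lower than both and 4 were within 2-fold of both. Over all genes these classes held 4.87%, 4.04% and 72%. Crabp1, lower than both, has no such element in its window. A link between the element and the differences was not tested.

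The breakdown enzymes differed in opposite directions. Cyp26a1 was not well above background in the bud (-5.11), and it was at -0.43 in caudal duct and -0.73 in rostral duct, at least 15.4-fold and at least 12.4-fold lower in the bud. Cyp26b1 was at 1.51 in the bud, -0.97 in caudal duct and -1.36 in rostral duct, 5.57-fold and 7.31-fold higher in the bud. Cyp26c1 was lower than both, with -3.40 in the bud, -2.17 in caudal duct and -2.26 in rostral duct.

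Rarb, the retinoic acid receptor that is itself induced by retinoic acid, was at 1.10 in the bud, -0.57 in caudal duct and -0.65 in rostral duct on its brightest probe, 3.18-fold and 3.37-fold higher in the bud. Its dimmer probes stayed within 2-fold and did not share a sign, at -0.5 and 0.3 from caudal duct and -0.6 and 0.5 from rostral duct. The 2-fold difference for Rarb thus rests on 1 probe of 3, whereas Cyp26b1 has a single probe on the array.

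Dhrs3, a reductase that returns retinal to retinol and also responds to retinoic acid, was at 2.88 in the bud, -0.21 in caudal duct and 1.11 in rostral duct, 8.53-fold and 3.42-fold higher in the bud. Crabp1, a cytoplasmic binding protein of retinoic acid, had the largest negative difference from caudal duct among the named genes. It was at -4.25 in the bud, 3.26 in caudal duct and 0.56 in rostral duct, 182-fold and 28.1-fold lower in the bud. Crabp1 had been at 3.03 at E8.75, 3.89 in caudal and 6.63 in rostral E9.5 duct, so the bud was the lowest of the 6 Hoxb7-GFP arrays.

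Among the synthesis enzymes, Aldh1a1 and Aldh1a3 were level between the bud and caudal duct and low in rostral duct. Aldh1a1 was at 3.98 in the bud, 3.94 in caudal duct and 0.10 in rostral duct, and Aldh1a3 at 4.22 in the bud, 4.04 in caudal duct and 0.76 in rostral duct. At E9.5 the same split was present, with Aldh1a1 at 4.03 in caudal and -0.07 in rostral duct and Aldh1a3 at 4.39 in caudal and -2.31 in rostral duct. In the undivided E8.75 cells Aldh1a1 was at -0.38 and Aldh1a3 at 2.14. Aldh1a2, the enzyme of mesoderm, was not well above background in the bud or in caudal duct and was at -1.47 in rostral duct. It had been at -1.22 in caudal and -0.37 in rostral duct at E9.5, well above background in both, and at 1.30 at E8.75. Stra6, a receptor for the carrier of retinol, also differed from rostral duct only, with 0.90 in the bud, 0.81 in caudal duct and -0.59 in rostral duct.

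**Figure D3:**
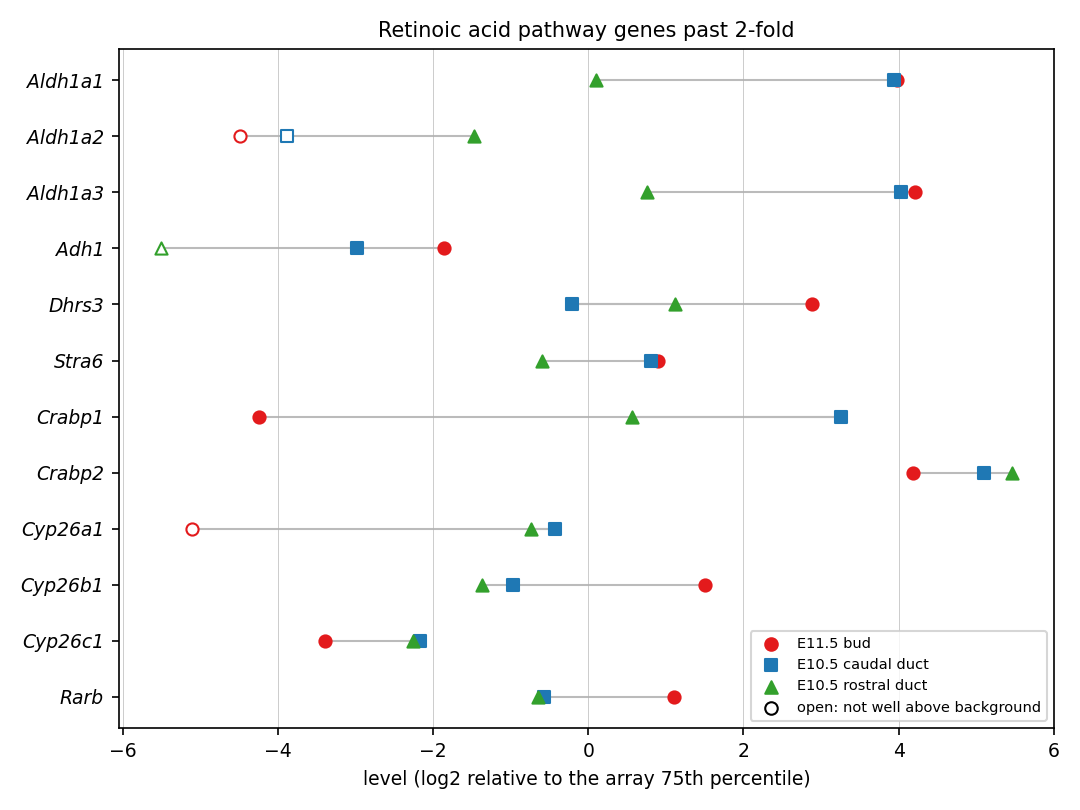
Levels of the 12 retinoic acid pathway genes past 2-fold in either comparison, on the log2 scale relative to the array's 75th percentile, with red circles for the E11.5 bud, blue squares for caudal and green triangles for rostral E10.5 duct, 1 array each, open where not well above background. For Aldh1a1, Aldh1a3 and Stra6 circle and square nearly coincide, while for Crabp1, Cyp26a1, Cyp26b1 and Dhrs3 the circle stands apart from both.

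Wnt genes as a list stood near the background of all genes against caudal duct and above it, in both directions, against rostral duct. Of 36 measured, 4 were higher and 3 lower than caudal duct (11.1% and 8.33%, against 7.79% and 8.79% of all genes). Against rostral duct 7 were higher and 8 lower (19.4% and 22.2%, against 11.8% and 8.72%). Wnt7b, a ligand of the collecting duct trunk, was at 0.69 in the bud, -2.09 in caudal duct and -1.88 in rostral duct, 6.84-fold and 5.91-fold higher in the bud, and no earlier duct array exceeded -1.26. Wnt6 was at 0.49 in the bud, 0.59 in caudal duct and -3.41 in rostral duct, 14.9-fold higher than in rostral duct and level with caudal duct. Wnt6 was likewise at 0.48 in caudal and -2.60 in rostral duct at E9.5.

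The secreted antagonist Sfrp2 lay between the E10.5 arrays, with 3.46 in the bud, 2.44 in caudal duct and 5.04 in rostral duct. Lef1, a nuclear partner of beta-catenin, was below background in the bud (-4.42), against -1.08 in caudal duct and 0.17 in rostral duct, but its other probe differed by 0.2 from caudal duct and -1.1 from rostral duct. Dkk3 was higher than both, with -0.89 in the bud, -2.65 in caudal duct and -2.58 in rostral duct.

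In the BMP and TGF-beta pathway the receptors Bmpr1a and Bmpr1b were higher than both arrays, and the ligand Bmp4 and its antagonist Nog lower than both. Of 30 genes, 8 were higher and 3 lower than caudal duct (26.7% and 10%, against 7.79% and 8.79% of all genes), the share lower being near that of all genes. Against rostral duct 5 were higher and 8 lower (16.7% and 26.7%, against 11.8% and 8.72%). The median difference from caudal duct was 0.10 on measured levels and -0.18 on floored ones, so its sign depended on the floor. Bmpr1a was at 3.87 in the bud, 2.83 in caudal duct and 2.69 in rostral duct, and Bmpr1b at 2.81 in the bud, 1.39 in caudal duct and 0.76 in rostral duct. Bmp4, which limits bud outgrowth from the surrounding mesenchyme, was at -2.29 in the bud, -0.19 in caudal duct and 2.23 in rostral duct, although its other probe was 0.7 higher than in caudal duct. Grem1, a BMP antagonist, was well above background in rostral duct only (-0.66).

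Of 16 Notch genes, 10 were within 2-fold of rostral duct, 1 was higher and 5 were lower (6.25% and 31.2%, against 11.8% and 8.72% of all genes), with a list median of -0.001. Against caudal duct 3 were higher and 1 lower (18.8% and 6.25%, against 7.79% and 8.79% of all genes). Hes5, a Notch target, was at -0.45 in the bud, 0.67 in caudal duct and 4.39 in rostral duct, 2.18-fold and 28.5-fold lower in the bud. Hey1 was at 1.59 in the bud, 1.49 in caudal duct and 3.34 in rostral duct. In both the rostral array was the high one.

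Shh, the Hedgehog ligand that the ureter epithelium makes, was at 0.12 in the bud, -2.79 in caudal duct and 0.01 in rostral duct, 7.50-fold higher than in caudal duct and level with rostral duct. Of 12 Hedgehog genes, 1 was higher and 1 lower than caudal duct (8.33% each, near the 7.79% and 8.79% of all genes). Against rostral duct 5 were higher and 0 lower (41.7% higher, against 11.8% of all genes). Gli3 was one of them, with 3.1 in the bud, 2.32 in caudal duct and 1.80 in rostral duct.

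Of 34 epithelial junction genes, 7 were higher and 1 lower than caudal duct (20.6% and 2.94%, against 7.79% and 8.79% of all genes). Against rostral duct 7 were also higher (20.6%, against 11.8%) and 3 lower (8.82%, near the 8.72% of all genes), and 5 were higher than both. Cldn8, a tight junction claudin of the collecting duct, was at 4.05 in the bud, 2.44 in caudal duct and 2.71 in rostral duct, and it was at background at E8.75. Cldn3 was at 1.04 in the bud, -0.16 in caudal duct and -0.39 in rostral duct. Dsp, desmoplakin of desmosomes, was at 1.67 in the bud, 0.49 in caudal duct and 0.44 in rostral duct, and its other probe was higher by 0.9 and 0.7.

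Ocln and Prom2 were also higher than both on their brightest probes, with other probes that were lower than caudal duct by 0.6 and 1.2. Calb1, a calcium-binding protein of the duct trunk, was at 4.66 in the bud, 3.34 in caudal duct and 3.65 in rostral duct, 2.49-fold and 2.02-fold higher, with the other probe higher by 1.5 and 1.1. Over the caudal duct arrays, Calb1 had stood at 1.83 at E9.5 and at -3.94 in the undivided E8.75 cells. Cdh16, the kidney-specific cadherin, was at 3.27 in the bud, 1.83 in caudal duct and 3.68 in rostral duct, so caudal duct was again the low array.

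Of 18 transport genes of the mature collecting duct, 1 was higher and 3 lower than caudal duct (5.56% and 16.7%, against 7.79% and 8.79% of all genes). Against rostral duct 2 were higher (11.1%, near the 11.8% of all genes) and 6 lower (33.3%, against 8.72%). Aqp3, a water channel, was at -0.99 in the bud, -1.0 in caudal duct and 3.30 in rostral duct, 19.6-fold lower in the bud than in rostral duct. Fxyd2, a subunit of the sodium pump, was at -2.08 in the bud, -2.42 in caudal duct and 1.47 in rostral duct, and Wnk4, a kinase of salt transport, at 0.05 in the bud, 0.55 in caudal duct and 2.25 in rostral duct. In all 3 the rostral array was high and the bud was close to caudal duct.

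Irx1, an Iroquois factor of nephron segments, and Calml3 had the same pattern. Irx1 was at 0.11 in the bud, -0.14 in caudal duct and 2.27 in rostral duct, and Calml3 at -2.92 in the bud, -2.87 in caudal duct and 0.05 in rostral duct. Wt1, of nephrogenic and coelomic mesoderm, was also highest in rostral duct (-0.98), against -3.94 in the bud and below background in caudal duct, while Wt1-GFP cells were at 4.01 and 4.08.

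Among Hox paralogues 6 to 9, 2 of 12 were higher and 3 lower than caudal duct (16.7% and 25%, against 7.79% and 8.79% of all genes). Against rostral duct 1 was higher and 5 lower (8.33% and 41.7%, against 11.8% and 8.72%). Hoxc6 was at -4.26 in the bud, -2.04 in caudal duct and 0.90 in rostral duct, and Hoxa6 at -2.37 in the bud, -0.92 in caudal duct and 1.72 in rostral duct. In both, the bud was lowest and rostral duct highest.

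Among paralogues 10 to 13, 1 of 10 was higher and 4 lower than caudal duct (10% and 40%, against 7.79% and 8.79% of all genes). Against rostral duct 4 were higher and 0 lower (40% higher, against 11.8%). Hoxc10 was at -3.58 in the bud, 0.63 in caudal duct and -3.39 in rostral duct, 18.4-fold lower in the bud than in caudal duct. Hoxa11 was well above background in caudal duct alone (-2.10). Hoxc10 was at 6.17 in caudal and 3.1 in rostral Wt1-GFP cells of E9.5, so it is a gene that the neighbouring mesoderm also carries.

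**Figure D4:**
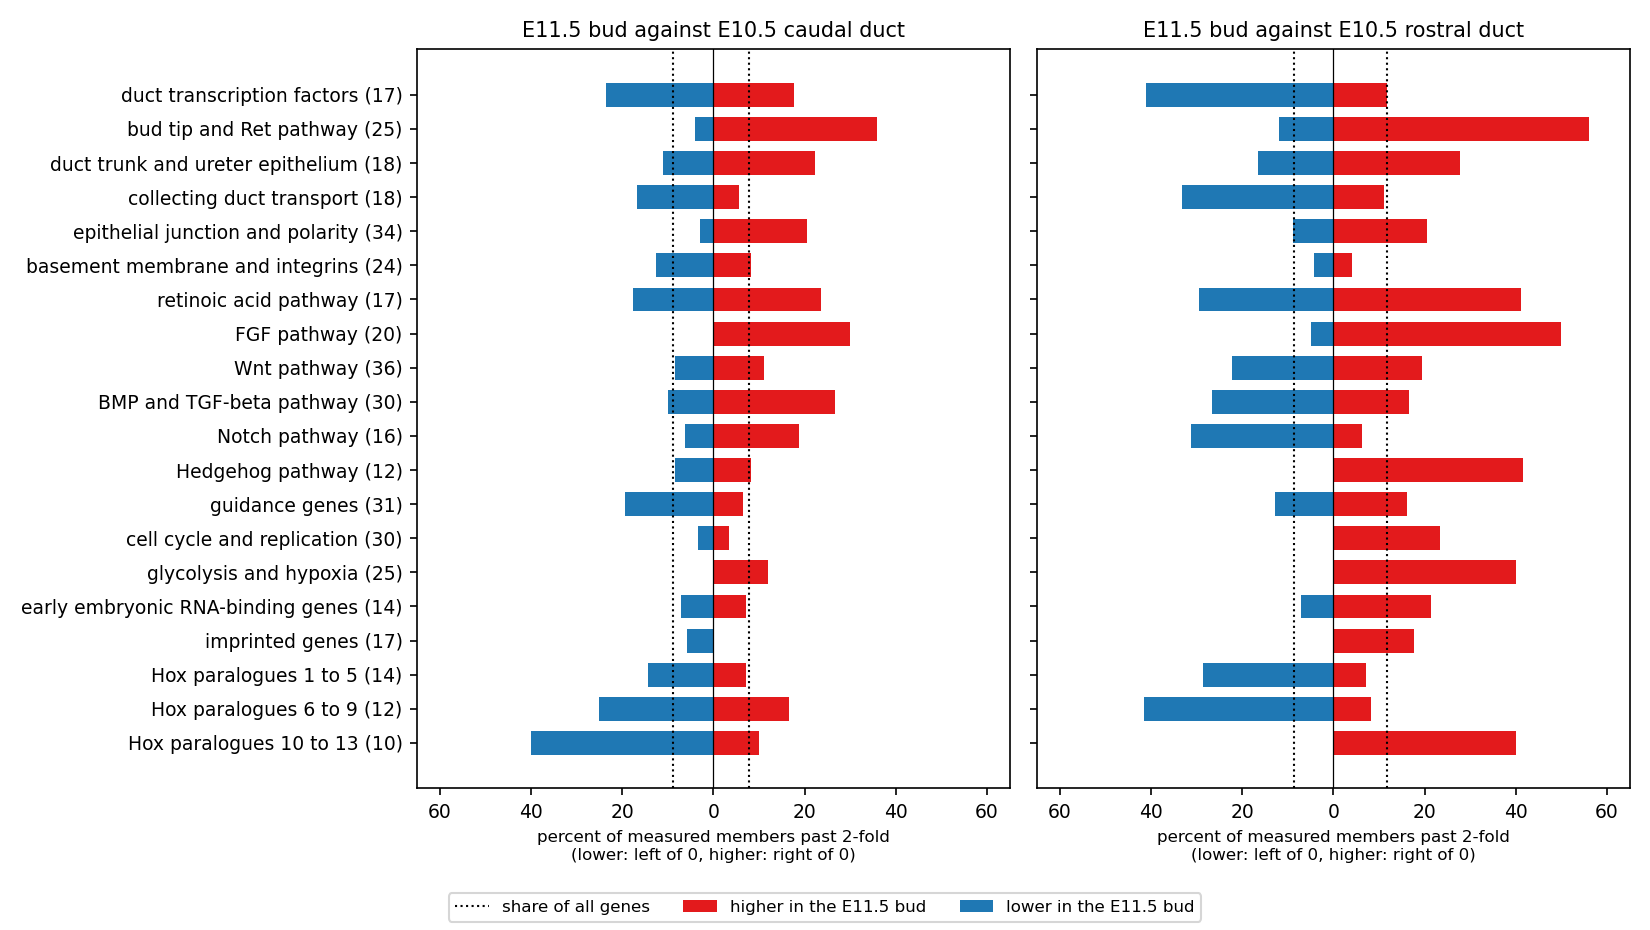
Share of measured members of 20 gene lists that were at least 2-fold higher (red, right of 0) or lower (blue, left of 0) in the E11.5 bud than in caudal (left panel) and rostral (right panel) E10.5 duct; dotted lines give the share of all 27331 genes and brackets the number measured. The bud tip and FGF lists reach farthest to the right in both panels, and cell cycle and glycolysis genes pass 2-fold mainly against rostral duct.

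Of 30 cell cycle genes, 23 were within 2-fold of rostral duct, 7 were higher and 0 lower (23.3% higher, against 11.8% of all genes). Against caudal duct 1 was higher and 1 lower (3.33% each, against 7.79% and 8.79%). Mycn, a MYC family factor of growing epithelium, was at 6.19 in the bud, 5.32 in caudal duct and 3.57 in rostral duct. Mcm6, a subunit of the replicative helicase, was at 6.66 in the bud, 6.19 in caudal duct and 5.28 in rostral duct. Each was ordered bud, caudal, rostral.

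Among 25 genes of glycolysis and hypoxia, 10 were higher than rostral duct (40%, against 11.8% of all genes) and 3 higher than caudal duct (12%, against 7.79%), with 0 lower in either. The median difference was 0.76 from rostral duct and 0.09 from caudal duct. Slc2a1, the main glucose transporter, was at 5.10 in the bud, 4.93 in caudal duct and 3.95 in rostral duct. Hk2, a hexokinase, was at 1.83 in the bud, 1.29 in caudal duct and -0.18 in rostral duct. Vegfa, the ligand of Flk1, passed against both on its brightest probe (3.26 in the bud, 1.80 in caudal duct and 1.81 in rostral duct), while its other probe was lower in the bud by 1.8 and 1.3.

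Neuronal genes were lower in the bud as a group. Of 15 measured neural markers, 9 were lower and 0 higher than caudal duct, 9 were lower and 0 higher than rostral duct (60% lower in each, against 8.79% and 8.72% of all genes), and 8 were lower than both, where 4.04% of all genes were. The median difference of the list was -1.57 from caudal duct and -1.45 from rostral duct. Nefl, the light neurofilament chain, was at -1.36 in the bud, 3.49 in caudal duct and 2.12 in rostral duct, 28.9-fold and 11.1-fold lower in the bud.

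Stmn2, a tubulin regulator of growing axons, was not well above background in the bud (-4.55), against -0.06 in caudal duct and -2.13 in rostral duct, at least 19.8-fold and at least 4.72-fold lower in the bud. Dcx, doublecortin, was at -0.36 in the bud, 1.71 in caudal duct and 1.10 in rostral duct, and both of its other probes were lower as well, by 1.0 to 3.1. The rostral E9.5 duct was brighter still, at 6.54 for Nefl and 3.47 for Stmn2. Of 18 listed neural markers, 11 were well above background in the bud, 14 in caudal duct and 15 in rostral duct, with summed signals of 38.3, 68.8 and 50.5 times the 75th percentile; Elavl4, bright and nearly level on the 3 arrays, made up most of the bud's sum. In bulk samples, fewer cells of a type and less RNA per cell cannot be told apart, and the part of such cells in the other genes lower in the bud was not tested.

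The remaining genes furthest below both E10.5 arrays, among those above background on all 3, were of several kinds. Nr2f1, an orphan nuclear receptor, was at -1.28 in the bud, 1.48 in caudal duct and 3.43 in rostral duct, with the other probe lower by 4.1 and 6.2. Vcan, a matrix proteoglycan, was at -2.12 in the bud, 0.83 in caudal duct and 1.70 in rostral duct, and both of its other probes were lower. Dlx1, a homeodomain factor, was at -3.36 in the bud, 0.31 in caudal duct and 0.37 in rostral duct, but its other probe was 0.5 higher than in rostral duct. Gsn, gelsolin, was not well above background in the bud (-5.57), against 0.27 in caudal duct and 2.49 in rostral duct, and the other probe was lower by 5.2 and 7.1.

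Among genes furthest above both, Mia, a small secreted protein, was at 4.55 in the bud, 1.30 in caudal duct and -0.45 in rostral duct. Fdxr, ferredoxin reductase, was at 1.89 in the bud, -1.56 in caudal duct and -1.27 in rostral duct, and Vwa5a was at 0.63 in the bud, -3.21 in caudal duct and -2.32 in rostral duct, with its other probe higher by 2.2 and 1.2. Ednrb, an endothelin receptor, was at 2.79 in the bud, 1.29 in caudal duct and -0.86 in rostral duct, and its other probe was higher by 2.4 and 3.7.

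A separate set was lower on the caudal array than on the bud and rostral E10.5 arrays. Of 18 immediate early and heat shock genes, 8 were higher and 1 lower than caudal duct (44.4% and 5.56%, against 7.79% and 8.79% of all genes). Of these 8, 6 were higher than caudal duct only and 2, Atf3 among them, were higher than both. Against rostral duct 3 were higher and 3 lower (16.7% each, against 11.8% and 8.72%). Fos was at 3.37 in the bud, -0.21 in caudal duct and 3.02 in rostral duct, 12-fold higher than in caudal duct and 1.27-fold higher than in rostral duct. Egr1 was at 6.48 in the bud, 4.49 in caudal duct and 6.44 in rostral duct, and Egr2 at 1.85 in the bud, -1.43 in caudal duct and 1.62 in rostral duct. The summed signal of the 18 listed genes with a probe was 534 times the 75th percentile in the bud, 308 times in caudal duct and 415 times in rostral duct. Their mean level was 0.888 in caudal duct, 2.129 in the bud and 1.985 in rostral duct. On the arrays outside the comparison it ran from 0.415 to 1.055. Caudal duct thus lay within that range, and the bud and rostral duct lay above it.

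Embryonic globins were also lower in caudal duct than in the bud and rostral duct. Hbb-y, the embryonic beta-like chain, was at 2.43 in the bud, -3.64 in caudal duct and 1.91 in rostral duct, 67.0-fold higher than in caudal duct, and its other probe was higher by 7.4. Hba-x was at -0.28 in the bud, below background in caudal duct and at -0.75 in rostral duct. Of 10 erythroid markers, 5 were higher and 0 lower than caudal duct (50% higher, against 7.79% of all genes), while 3 were higher and 3 lower than rostral duct (30% each, against 11.8% and 8.72%). The summed signal of the 13 with a probe was 8.54 times the 75th percentile in the bud, 1.45 times in caudal duct and 7.89 times in rostral duct. Erythroid and immediate early RNA were both lower on the caudal array than on the bud and rostral arrays, as were Shh, Cdh16 and Tfap2b. The erythroid sum in caudal duct was the lowest of the 8 arrays. Immediate early RNA in caudal duct was within the range of the arrays outside the comparison. The part of erythroid and immediate early RNA in the differences of Shh, Cdh16 and Tfap2b was not tested.

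**Figure D5:**
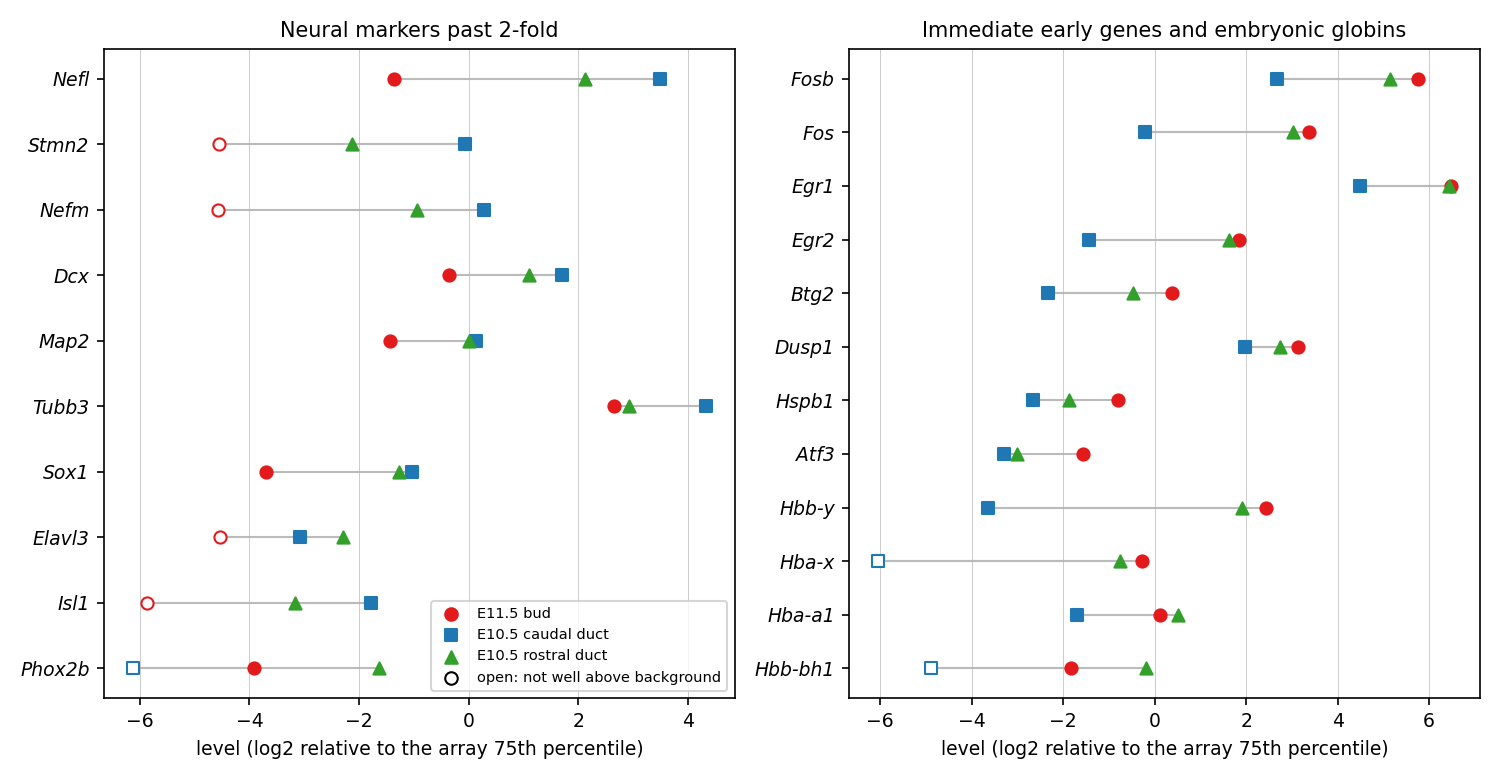
Levels of 10 neural markers (left panel) and of 8 immediate early and heat shock genes and 4 globins (right panel), on the log2 scale relative to the array's 75th percentile, with red circles for the E11.5 bud, blue squares for caudal and green triangles for rostral E10.5 duct, 1 array each, open where not well above background. Neural markers lie furthest left in the bud for 9 of 10 genes, and in the right panel the caudal square is the leftmost mark of every gene. The neural markers are the 10 of 15 measured that passed 2-fold in either comparison. The immediate early and heat shock genes are 8 of 18 measured. Of those 18, 9 were within 2-fold of caudal duct and 1 was lower. These positions therefore follow in part from the choice of genes.

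Markers of other neighbouring cells passed 2-fold in part. Of all genes, 7.79% were higher and 8.79% lower than caudal duct, and 11.8% were higher and 8.72% lower than rostral duct. Of 18 stromal genes, 1 was higher and 1 lower than caudal duct (5.56% each), and 4 were higher and 3 lower than rostral duct (22.2% and 16.7%). Of 15 nephron progenitor genes, 3 were higher and 1 lower than caudal duct (20% and 6.67%). Against rostral duct 3 were higher and 3 lower (20% each), and 2 were higher than both (13.3%, against 4.87% of all genes). Among 11 coelomic markers, 0 were higher and 3 lower than caudal duct (27.3% lower, against 8.79% of all genes). Against rostral duct 1 was higher and 4 were lower (9.09% and 36.4%, against 11.8% and 8.72%). Among 10 markers of surface ectoderm, 0 were higher and 1 lower than caudal duct (10% lower, against 8.79% of all genes). Against rostral duct 4 were higher and 1 was lower (40% and 10%, against 11.8% and 8.72%). Six2, of nephron progenitors, reached only -2.53 in the bud and was below background in both E10.5 arrays. Among 17 endothelial markers, 4 were higher and 1 lower than caudal duct (23.5% and 5.88%, against 7.79% and 8.79% of all genes). Against rostral duct 4 were higher and 3 lower (23.5% and 17.6%, against 11.8% and 8.72%). Of the 17, 3 were higher than both (17.6%, against 4.87%). The list median was -0.22 from caudal duct and 0.58 from rostral duct. Those higher than both included Icam2 at -0.03 in the bud, -2.98 in caudal duct and -2.44 in rostral duct and Cdh5 at -1.28 in the bud, -3.27 in caudal duct and -2.48 in rostral duct. Eng, a co-receptor of TGF-beta in endothelium, went the other way, with -3.30 in the bud, -2.54 in caudal duct and -1.82 in rostral duct. Icam2 and Cdh5 lay below the 75th percentile, and the 20 endothelial markers with a probe summed to 11.3 times the 75th percentile in the bud, 9.18 times in caudal duct and 8.42 times in rostral duct, and their part in the bud's other differences was not tested.

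Several names among the largest differences were bright on 1 array of the 8. By the ranking used here, the genes furthest above both E10.5 arrays were Runx1, Speer2, Olfr994, Clec4e, Plac8l1, Olfr1208, Olfr1302, Svs2, Pcdhb4, Cabp2, Vmn1r89 and Chdh. Runx1, a blood and epithelial factor, was at 1.01 in the bud and below background in both E10.5 arrays, at least 31-fold higher in the bud than in caudal duct. Olfr and Vmn genes encode olfactory and pheromone receptors, and Olfr994 was at 0.54 in the bud and below background in both others.

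The caudal array had its own such set. Olfr915 was at 1.37 in caudal duct, below background in the bud and in rostral duct, and Vmn1r49 at 0.70 in caudal duct, again below background in the other two. In all, 461 genes were above background on the bud array alone, 224 on the caudal and 417 on the rostral E10.5 array, and 163 to 497 on each of the other 5 arrays. Of the 461, 27 reached a level of -1, against 26 of the 224 and 0 of the 417. Genes above background on 1 array only made up 127 (9.53%) of the 1332 higher than both. They made up 151 (11.91%) of the 1268 lower than caudal duct only and 0 of the 775 higher than caudal duct only. For rostral duct only, they made up 152 (8.15%) of the 1864 higher and 65 (5.17%) of the 1258 lower. These shares depend on the floors, which were -3.95 for caudal and -4.76 for rostral duct. A bud gene at the floor on both E10.5 arrays differs more from rostral than from caudal duct. It therefore cannot be called higher than caudal duct only.

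Probes of the same gene gave a check within the arrays. Other probes above background on all 3 arrays had the same sign against both E10.5 arrays in 211 of 372 cases (56.72%) for genes higher than both and in 284 of 410 (69.27%) for genes lower than both. Among genes within 2-fold of both, 35.17% of other probes were higher and 41.45% lower than both. A full 2-fold against both was seen in 22.31% of other probes for genes higher and 29.51% for genes lower, against 3.23% and 5.42% in the genes within 2-fold. Single genes with several probes are therefore read best where the probes share a direction, as for Calb1, Etv1, Ednrb, Dcx, Nr2f1 and Gsn.

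The 5 earlier or other arrays took no part in defining the classes, but the bud array did. Genes chosen for a high or low bud value are compared again here with that same value. Shares beyond those of all genes therefore follow in part from the choice and are not a separate check. The bud exceeded the E8.75 and both E9.5 duct arrays in 82.9% of the genes higher than both E10.5 arrays, against 27.1% of all genes. It lay below those 3 arrays in 72.5% of the genes lower than both, against 27.2% of all genes. The share above was 68.6% for genes higher than caudal duct only and 56.8% for genes higher than rostral duct only. The share below was 50.6% for genes lower than caudal duct only and 45.5% for genes lower than rostral duct only.

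The rostral and caudal E9.5 arrays, which share no sample with the comparison, gave a view of position at the earlier stage. The 2-fold shares in this paragraph do not follow the floor rule behind the 11.9% above. Over all genes, caudal E9.5 duct was 2-fold higher in 1629 and rostral in 2614 here, against 1300 and 1956 with the floor. Rostral E9.5 duct was at least 2-fold above caudal E9.5 duct in 24.96% of the genes that were lower in the bud than rostral E10.5 duct only, against 9.56% of all genes, and the opposite held in 7.47%, against 5.96% of all genes. The other classes lower in the bud had like shares, 20.43% of genes lower than caudal duct only and 23.17% of genes lower than both. For genes that were higher in the bud than rostral E10.5 duct only, caudal E9.5 duct was 2-fold above rostral in 11.75% and below in 9.98%, and for genes higher than both in 14.64% and 12.39%. Aldh1a1, Aldh1a3, Wnt6 and Ret belong to that class and to the 11.75%.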

How the data were processed

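Cells were sorted from mouse embryos, and per the labels' protocols, 10 ng of their total RNA went through NuGEN Ovation Pico amplification and Cy3 labelling. Per the file headers, each deposited intensity is a background-subtracted, processed 1-colour signal (Agilent Feature Extraction, version 10.7.3.1). The authors' deposited table holds log2 values, which followed the same signals scaled to the array's 75th percentile and centred on each probe's median (r = 0.9998); it served as an alternative. Its column medians ran from -0.070 in caudal E9.5 duct to 0.080 in rostral Wt1-GFP cells, and the sources used here do not state its scale.

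All 8 arrays lay on 1 slide and shared 1 scan. Each held 62976 spots, 59305 of them not controls; 75th percentile signals lay between 243 and 317, and 60.5% to 69.1% of probes were well above background. The number of arrays limits the precision. Outlier spots were left out, repeated spots averaged, and 55663 probes kept (18 dropped), 26755 named by RefSeq accession, 3817 by symbol and 25091 by their own name. A gene was represented by its brightest probe, and probes were well above background where every kept spot was.

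Levels, floors and the 2-fold rule are given above. Python 3.11.15 with pandas 2.3.3 was used for the classes and limma 3.58.1 in R 4.3.3 for a fit with group and position terms (0.5 rostral, -0.5 caudal, 0 undivided), with Benjamini-Hochberg adjustment. Both were tested on simulated data. Named genes were 11 label and duct genes, up to 12 higher and 12 lower than both arrays by the smaller difference, up to 6 each way that differed from 1 array only, up to 3 in each opposite class, and up to 6 of each list. The 15 genes each way that were furthest from both among genes above background on all 3 arrays were added after the values were seen. A few listed genes are counted but not reported by name here. The members, the 37 gene lists and the rules were chosen with earlier results of these data known. Alternatives were 3 scalings, normexp background correction, the deposited table, the median of probes, 2 filters on dim genes, no floor, and 4-fold.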

Additional observations from a re-analysis of the deposited data

How the results depend on the processing

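With quantile normalization, the array median as scale, the deposited table or the median of probes, the 5 counts (differences from caudal duct, from rostral duct, from both, and from either only) stayed within 1.5 times those given. Normexp background correction with an offset of 50 lowered them to 1747, 2150, 874, 868 and 1271 (the cause was not tested), and 4-fold instead of 2-fold to 943, 1143, 403, 539 and 739. Among genes above background on all 3 arrays the count of differences from rostral duct only was 2060. With RefSeq symbols only, a choice made after seeing the data, 2971 genes differed from caudal duct and 1303 from caudal duct only. Leaving out genes above background on 1 array of 8, also chosen after seeing the data, kept all 5 counts within 1.5 times (4253, 5266, 2310, 1892 and 2905). Without the floor, 48.7% of the differences from rostral duct only were higher in the bud, against 59.7% with it, and at 4-fold 26.9% of those from caudal duct only were, against 37.9%.

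The outcome of the limma fit was the same with a trend of the prior variance and with slide part as a block. Of 3072 recomputed differences of 256 named genes, 514 moved by more than the scanner's error, 314 of them with normexp, 109 with the median over probes, 88 without the floor and 3 with quantile normalization. Another 10 changed sign, all with the median over probes in place of the brightest probe. They were -0.24 for Adamts18, -0.49 for Rarb, -0.20 for Vegfa and -1.99 for Hoxd11 against caudal duct, and 0.033 for Dpf3, -1.72 for Dppa4, 0.57 for Epha7, -0.35 for Pfkp, -0.60 for Rarb and -0.67 for Ttn against rostral duct. No paired analysis was possible because each group had 1 array. Dim genes are limited by the floor, and probes near background carry larger errors.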
